A study of Mus musculus with 18 samples.

Results

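The collagen genes studied here were the 41 protein-coding genes on chromosomes 1–19 of the mouse (mm9, GENCODE vM1 annotation) whose symbol is Col, a number, the letter a, and a number. They were 41 of 21418 protein-coding genes on these chromosomes. An open region, a stretch of chromatin that a transposase could cut, was assigned to a gene when its midpoint lay in the gene body or within 10 kb of either end. In this way, 191 of the 68533 open regions on chromosomes 1–19 (69499 in the whole list) were assigned to collagen genes, and none of them to more than 1 collagen gene. By class, there were 11 fibrillar collagen genes, 4 basement membrane collagen genes, 2 multiplexins, 9 FACITs, 6 beaded filament genes, 3 short-chain network genes, 4 transmembrane collagens, and *Col7a1* and *Col28a1*.

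The regions come from fast-ATAC-Seq of liver macrophages (LMs, named KCs for Kupffer cells in the sample titles) of male C57BL/6J mice on a high fat and sucrose diet for 4 weeks (HFHSD). Mice of 3 genotypes (control, *Reverb*-hDKO, and *Reverb/Scap*-hTKO) were sampled at ZT10 and ZT22 (10 and 22 hours after the lights came on), with 3 samples in each of 6 groups, or 18 libraries of 50000 cells. All mice carried floxed alleles and received an adeno-associated virus as adults at 8 weeks of age, which expressed GFP in controls and CRE in the other genotypes from the TBG promoter, so *Rev-erb*α and *Rev-erb*β, with or without *Scap*, were deleted in hepatocytes and the LMs were not a target of the deletion. The list joins the peaks of all libraries and gives positions without a count or a score, so no value can be assigned to a genotype, a time, or a library, and no test between groups was possible. The depth behind it is unknown.

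Collagens are proteins of the extracellular matrix whose chains carry long Gly-X-Y repeats and wind around each other into a rope-like helix. Fibrillar collagens (types I, II, III, V, XI, XXIV, and XXVII) pack into the cross-banded fibrils that give tissue its tensile strength, and types I and III are the main collagens of liver scars, where hepatic stellate cells and the myofibroblasts derived from them are their best known source. Basement membrane collagens (type IV) instead form the sheet-like network on which epithelial and endothelial cells rest. The type IV genes lie in pairs that start head to head and are read in opposite directions from a shared stretch of DNA.

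The sequences below are shown because the comparison turns on where the regions lie and what they contain. All are from mm9, on the plus strand, 5′ to 3′, in lower case, with the letters of any searched motif in capitals. The first 3 are from fibrillar genes, namely the region nearest the start of *Col1a1* (chr11:94797921-94798071, in intron 1 of 50), the region at the start of *Col5a3* (chr9:20619513-20619675, just upstream of its first base), and the region with most kinds of motif in the class, downstream of *Col5a3* (chr9:20565318-20565576), where the capitals mark TEAD, AP-1, and ETS motifs in that order. *Col1a1* and *Col4a2* are on the plus strand of the genome, and *Col5a3* and *Col4a1* are on the minus strand.
Col1a1 intron 1: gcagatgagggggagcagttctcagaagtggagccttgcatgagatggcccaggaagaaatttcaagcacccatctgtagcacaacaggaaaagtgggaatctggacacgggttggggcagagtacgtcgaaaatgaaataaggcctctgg
Col5a3 start: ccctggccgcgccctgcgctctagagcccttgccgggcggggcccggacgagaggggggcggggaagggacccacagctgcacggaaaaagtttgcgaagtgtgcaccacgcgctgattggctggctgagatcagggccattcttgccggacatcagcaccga
Col5a3 downstream: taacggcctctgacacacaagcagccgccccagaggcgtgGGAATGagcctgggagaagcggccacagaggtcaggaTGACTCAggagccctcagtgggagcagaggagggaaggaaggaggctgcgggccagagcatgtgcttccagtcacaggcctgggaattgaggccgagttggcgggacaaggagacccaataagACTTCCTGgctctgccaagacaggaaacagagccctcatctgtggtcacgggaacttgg

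The next 6 are from the *Col4a1* and *Col4a2* pair. The first region inside *Col4a1* (chr8:11297709-11297859, intron 1 of 51) and the first inside *Col4a2* (chr8:11323044-11323194, intron 3 of 47) border the stretch without regions around the shared start, and neither holds a searched motif. The other 4 each hold the TEAD letters GGAATG, or their reverse complement CATTCC, together with a second motif. They lie in intron 1 of *Col4a1* (chr8:11271054-11271204, PU.1 then TEAD) and in intron 4 of *Col4a2* (chr8:11382608-11382772, TEAD then GATA, chr8:11392864-11393098, AP-1 then TEAD, and chr8:11393240-11393390, TEAD then GATA).
Col4a1 first region inside the gene: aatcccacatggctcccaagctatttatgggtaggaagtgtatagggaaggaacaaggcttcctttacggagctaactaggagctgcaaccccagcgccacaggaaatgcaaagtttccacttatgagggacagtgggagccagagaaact
Col4a2 first region inside the gene: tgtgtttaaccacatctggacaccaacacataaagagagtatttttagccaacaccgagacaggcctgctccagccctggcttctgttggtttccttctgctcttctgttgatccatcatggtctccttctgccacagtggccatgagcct
Col4a1 intron 1 with PU.1 and TEAD: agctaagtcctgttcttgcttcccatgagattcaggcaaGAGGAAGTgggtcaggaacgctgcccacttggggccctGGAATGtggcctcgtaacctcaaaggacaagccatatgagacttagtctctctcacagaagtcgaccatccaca
Col4a2 intron 4 with TEAD and GATA: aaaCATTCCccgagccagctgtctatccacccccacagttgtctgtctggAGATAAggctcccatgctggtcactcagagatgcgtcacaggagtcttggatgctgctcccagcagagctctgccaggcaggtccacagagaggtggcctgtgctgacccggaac
Col4a2 intron 4 with AP-1 and TEAD: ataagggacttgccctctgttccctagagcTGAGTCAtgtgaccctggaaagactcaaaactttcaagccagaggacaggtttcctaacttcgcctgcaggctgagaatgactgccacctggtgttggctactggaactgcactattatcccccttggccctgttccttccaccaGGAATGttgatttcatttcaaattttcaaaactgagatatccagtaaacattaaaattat
Col4a2 intron 4, second TEAD and GATA: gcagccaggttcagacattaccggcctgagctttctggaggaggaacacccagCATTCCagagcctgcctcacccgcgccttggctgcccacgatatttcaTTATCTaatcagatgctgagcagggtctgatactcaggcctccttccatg

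Open regions were found at most collagen genes, but they were concentrated in a few. Of the 41 genes, 32 had at least 1 region, against 75.7% of protein-coding genes of every length. Among protein-coding genes of 100 kb or more it was 2079 of 2281, and 6230 of 7047 among those of 20 to 100 kb. The collagen share is thus near that of all genes but below both of these. The 9 genes with none were *Col1a2*, *Col2a1*, *Col3a1*, *Col4a4*, *Col6a4*, *Col8a1*, *Col9a1*, *Col10a1*, and *Col28a1*. A further 13 had 1 or 2, and 19 had 3 or more. At the other end, 7 of 41 (17.1%) had 10 or more, compared with 5.62% of all protein-coding genes of every length. This share was not computed for long genes alone. The median number of regions per gene was 2 for collagens, 3 for all protein-coding genes, and 5 for those of 100 kb or more. The 5 genes with most regions, *Col15a1* and *Col18a1* with 18 each, *Col27a1* with 17, *Col4a2* with 14, and *Col13a1* with 12, held 79 of the 191 regions (41.4%).

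Collagen genes are long, with a median length of 107 kb against 15.5 kb for all protein-coding genes, so regions were also counted per 100 kb of gene body plus flanks, which is called density here. Pooled over the 41 genes, the density was 3.53 regions per 100 kb, lower than the 4.40 of all protein-coding genes and higher than the 2.73 of those of 100 kb or more. The median over genes was 2.68 for collagens and 4.88 for all protein-coding genes, and 14 of the 41 lay above the latter. Of the 23 collagen genes of 100 kb or more, 9 lay above the median density of long genes, which was 2.46. The number of regions followed length only weakly among collagens (Pearson's r = 0.156, Spearman's rho = 0.135, n = 41 genes), whereas it did so more closely among all protein-coding genes (r = 0.438, rho = 0.448, n = 21418). These correlations are across genes, which share the same libraries and are not independent replicates.

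**Figure D1:**
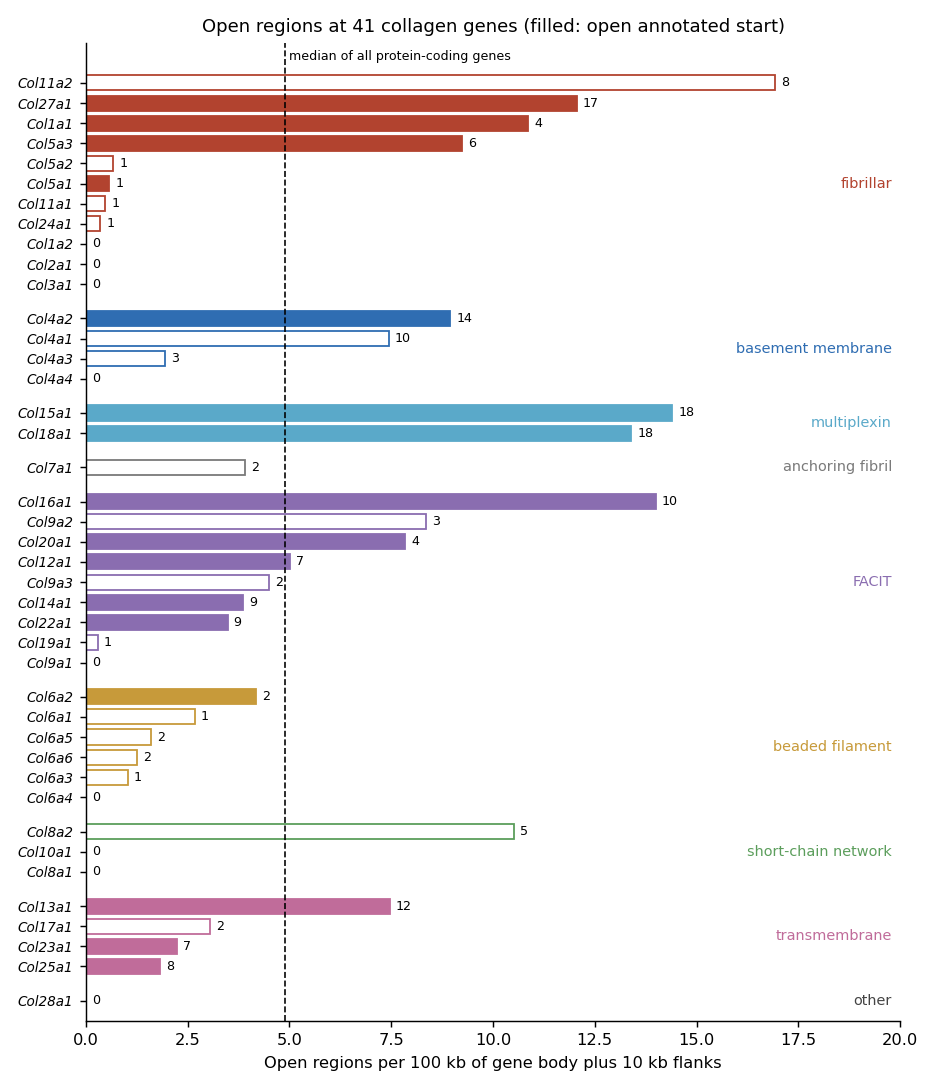
Open regions per 100 kb of gene body plus 10 kb flanks (horizontal axis) for each of the 41 collagen genes (vertical axis), grouped by class; the number of regions stands beside each bar, filled bars have an open annotated start, and the dashed line is the median of all protein-coding genes, 4.88. Fibrillar genes fall into 4 genes at 9.23 or above and 7 at 0.671 or below, and both multiplexins exceed 13.

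Fibrillar collagen genes were divided between 4 genes with several regions and 7 with 1 or none. Together the 11 genes had 39 regions, or 3.08 per 100 kb, with a median of 1 region per gene. *Col27a1*, which encodes the chain of the thin type XXVII fibrils of cartilage, had 17 regions (12.1 per 100 kb), or 43.6% of the class, while the other 10 genes together had 22. The regions of *Col27a1* ran through the gene body, with 14 inside it, 11 of those in later introns, and up to 7 within 20 kb. *Col11a2*, which encodes a chain of type XI collagen, had 8 regions and the highest density of any collagen gene, 16.9 per 100 kb, but 3 of the 8 lay at starts of its upstream neighbors *Rxrb* and *Slc39a7*, and its own starts were not open.

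The 2 chains of type I collagen differed. *Col1a1*, for the alpha 1 chain, had 4 regions (10.9 per 100 kb), of which 2 lay in its first intron at 458 and 874 bp from the first base, 1 was 7234 bp upstream, and 1 was downstream of the gene. *Col1a2*, for the alpha 2 chain that is built into the same molecule, had no region, the closest one standing 15228 bp upstream of its first base at the edge of a stretch of 110.5 kb without any. *Col3a1*, the single gene for type III collagen, also had none and lay in the longest such stretch of any collagen gene, 856 kb. *Col2a1*, the main fibrillar collagen of cartilage, had none either, although its start is rich in CpG.

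The type V genes, whose chains help start fibrils and set their diameter, were likewise unequal. *Col5a3* had 6 regions (9.23 per 100 kb), including 1 at its start, 4 in later introns, and the downstream region with 3 kinds of motif printed above. *Col5a1* had a single region, 418 bp upstream of its first base, in a window of 173 kb, and no region for 175 kb from there on. *Col5a2* had 1 region, 71120 bp inside the gene. *Col11a1* and *Col24a1* had 1 region each (0.476 and 0.358 per 100 kb), in the first intron and downstream of the gene, respectively.

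Basement membrane collagen genes had most of their regions in 1 of the 2 gene pairs. The 4 genes had 27 regions, or 4.80 per 100 kb, with densities of 8.95 for *Col4a2* (14 regions), 7.44 for *Col4a1* (10 regions), 1.93 for *Col4a3* (3 regions), and 0 for *Col4a4*. *Col4a1* and *Col4a2* encode the chains of the type IV collagen found in nearly all basement membranes and held 24 of the 27 regions (88.9%). Of the 14 regions at *Col4a2*, 4 lay downstream of the gene. Those at chr8:11458361-11458858 and chr8:11459137-11459344 were inside its neighbor *Rab20*. *Col4a3* and *Col4a4* encode chains of the collagen IV of kidney glomeruli and a few other tissues. Of the 3 regions at *Col4a3*, 2 lay at the start of its neighbor *Mff*, a gene of mitochondrial fission, and the last was in its first intron, 49672 bp from the first base.

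**Figure D2:**
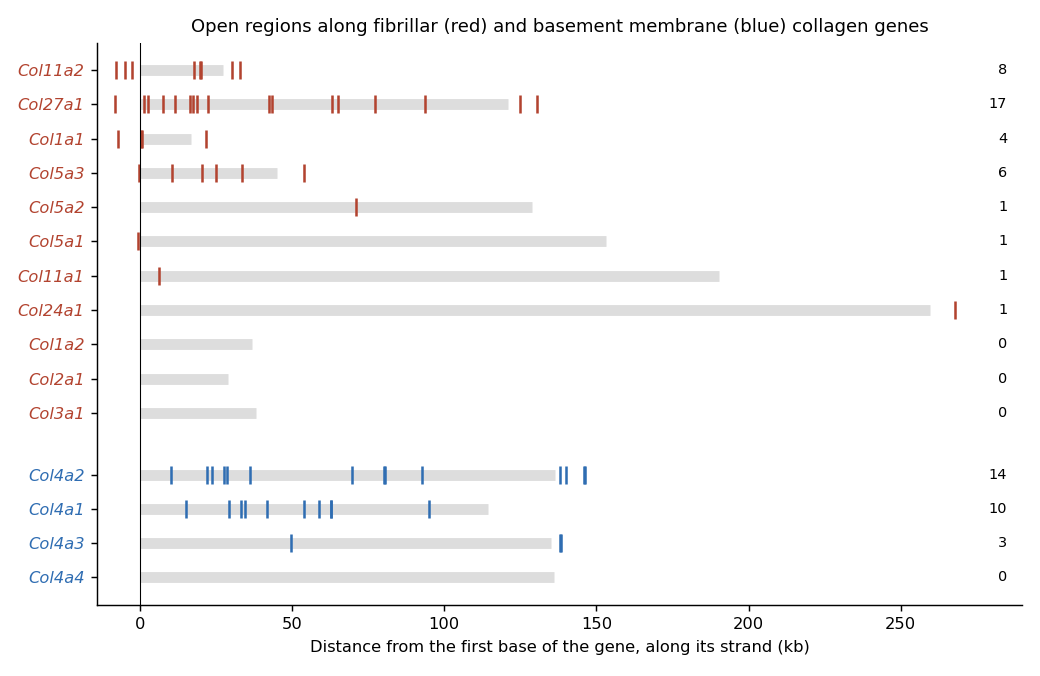
Midpoints of open regions (ticks) along the 11 fibrillar (red) and 4 basement membrane (blue) collagen genes, as distance in kb from the first base along the gene's strand; grey bars are gene bodies, and the number of regions is at the right. *Col27a1*, *Col4a1*, and *Col4a2* carry regions through their bodies, and no tick stands at the first base of a basement membrane gene.

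Pooled density was 1.56 times as high in basement membrane as in fibrillar collagen genes, but this ratio did not have a stable direction. It was 0.991 without *Col4a2*, 0.985 when the genes' densities were averaged (4.58 for basement membrane and 4.65 for fibrillar genes), and 2.46 without *Col27a1*. With the medians of the genes' densities, 4.69 and 0.578, it was 8.11. Genes are not replicates, and with 4 and 11 of them and a range within each class from 0 to 8.95 and from 0 to 16.9, the classes overlapped. Open regions covered 0.918% of the windows of basement membrane genes and 0.582% of those of fibrillar genes, compared with 0.824% over all protein-coding genes.

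The share of genes with an open start was lower among collagens than among all protein-coding genes. An annotated start was called open when the midpoint of a region lay within 1000 bp of it, and 16 of 41 collagen genes had one (39.0%, 95% Wilson interval 25.7% to 54.3%, which covers counting error only), against 57.7% of all protein-coding genes. The share was 67.1% among protein-coding genes of 100 kb or more and 73.7% among those of 20 to 100 kb. In 6 of the 16 collagen genes (*Col4a2*, *Col13a1*, *Col15a1*, *Col18a1*, *Col20a1*, and *Col27a1*) only an internal start was open. Counting the first base of the gene alone, 10 of 41 collagen genes (24.4%) had an open start, compared with 54.0% of all protein-coding genes. Among fibrillar genes, 4 of 11 had an open start (*Col1a1*, *Col5a1*, *Col5a3*, and *Col27a1*, whose region at 1386 bp lay near an internal start). Among basement membrane genes it was 1 of 4, *Col4a2*, and its region lay 92712 bp inside the gene.

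The CpG content of the start moved with this result. Starts were classed as CpG-rich when the 1000 bp around the first base had at least 50% G and C and an observed to expected CpG ratio of at least 0.6. In all, 11 of the 41 collagen genes had such a start, compared with 9658 of 21418 protein-coding genes. Within the CpG-rich class, 8 of 11 collagen genes had an open start (72.7%, 43.4% to 90.2%) and 87.2% of all protein-coding genes did. Within the CpG-poor class it was 8 of 30 (26.7%, 14.2% to 44.4%) and 33.4%. Both intervals for collagen genes include the value of all protein-coding genes when any annotated start counts. The CpG class is that of the first base, however, while the open start could be an internal one. Among the 8 CpG-rich genes are *Col4a2*, *Col13a1*, *Col15a1*, and *Col27a1*, where only an internal start was open. Shares by CpG class for the first base alone were not computed. The part of CpG content in the result was not tested.

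**Figure D3:**
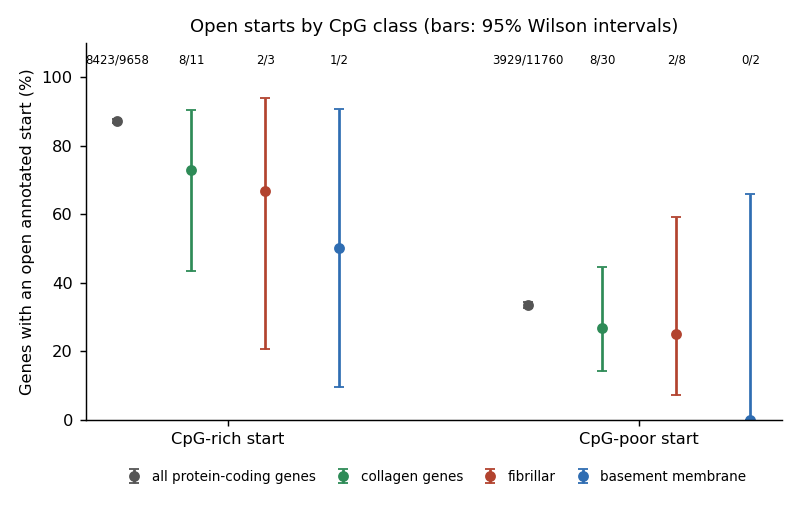
Share of genes with an open annotated start (vertical axis, percent) among CpG-rich and CpG-poor starts, for all protein-coding genes, collagen genes, and the 2 collagen classes; points are shares, bars are 95% Wilson intervals, and the numbers above are genes open of genes in all. Collagen genes stand at 72.7% and 26.7%, with intervals that reach the 87.2% and 33.4% of all protein-coding genes. The CpG class is that of the first base, and internal starts also count as open.

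Neither shared start of the type IV pairs was open. The first bases of *Col4a1* and *Col4a2* are 21 bp apart, both starts are CpG-rich, and the nearest regions on either side were the 2 printed above, 15042 bp into *Col4a1* and 10314 bp into *Col4a2*, which left 25.2 kb without a region (chr8:11297860-11323043). The first bases of *Col4a4* and *Col4a3* are 72 bp apart, in a stretch of 319 kb without a region (chr1:82313695-82633080). Of 1186 pairs of protein-coding genes with starts arranged in this way, 1096 (92.4%, 90.8% to 93.8%) had a region within 1000 bp, so these 2 pairs are among the 7.59% that did not. The starts of *Col4a4* and *Col4a3* are CpG-poor, and the count of pairs was not split by CpG class. This count was added after the gap at *Col4a1* and *Col4a2* had been seen. The stretch without a region around the first base had a median of 79.8 kb at collagen genes and 27.7 kb at all protein-coding genes. The 25.2 kb at *Col4a1* and *Col4a2* is below both medians and the 319 kb at *Col4a4* and *Col4a3* is above both. These medians were not matched for gene length or CpG class.

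**Figure D4:**
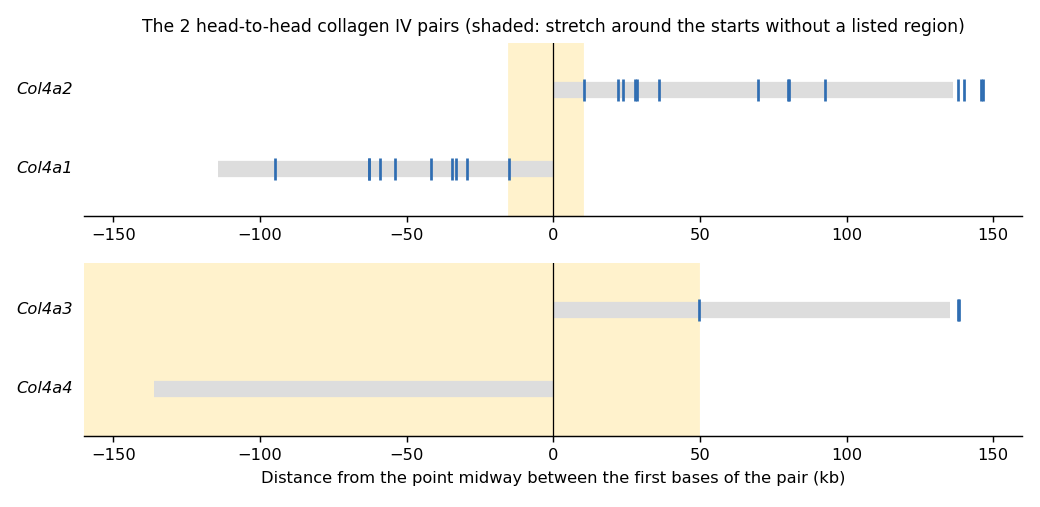
Open regions (blue ticks) along the 2 head-to-head pairs of collagen IV genes, by distance in kb from the point midway between their first bases; grey bars are gene bodies and the shading is the stretch around the shared start that has no region (25.2 kb in the upper pair, 319 kb in the lower pair, which runs past the left edge). The regions of the upper pair begin on both sides at 10 to 15 kb from the start.

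Regions of collagen genes lay mostly in introns behind the first. Of the 191 regions, 101 (52.9%, 45.8% to 59.8%) were in later introns, compared with 29.2% of the regions of all protein-coding genes. At a start of a collagen gene were 23 (12.04%, 8.16% to 17.4%). The 36.6% at starts among regions of all protein-coding genes counts the start of any such gene, so the 2 shares at starts differ in rule. The shares in later introns differ in rule as well. Over all protein-coding genes, a region counted there only if it lay at no start and in no first intron of any such gene. None of these shares was matched for gene length or number of introns. A further 14 of the 191 lay at the start of another protein-coding gene, and 154 lay away from any. Fibrillar and basement membrane genes were close in the share in later introns, 48.7% (33.9% to 63.8%) and 51.9% (34.0% to 69.3%). First introns held 6 of 27 basement membrane regions (22.2%, 10.6% to 40.8%), of which 5 were in the first intron of *Col4a1*, and 2 of 39 fibrillar regions (5.13%, 1.42% to 16.9%). The 2 intervals overlap, and the regions of a class come from few genes.

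Regions of fibrillar genes exceeded the commonest width more often than those of basement membrane genes, but the intervals overlapped. The list has a commonest width of 151 bp, and 26 of 39 fibrillar regions exceeded it (66.7%, 51.0% to 79.4%), compared with 11 of 27 basement membrane regions (40.7%, 24.5% to 59.3%) and 53.4% of all regions on chromosomes 1–19. The widths had a median of 185 bp in fibrillar and 151 bp in basement membrane genes, and the list as a whole had one of 160 bp. *Col27a1* alone supplied 17 of the 39 fibrillar regions, with a median width of 183 bp. The fibrillar share without this gene was not computed. The widest region of a fibrillar gene, 323 bp, was the one upstream of *Col1a1*. Basement membrane genes nevertheless had the widest region of any collagen gene, 498 bp, which lay downstream of *Col4a2* inside *Rab20*, and another of 422 bp in the first intron of *Col4a1*.

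For 10 of 11 searched motifs, the intervals of both classes included the share in the list as a whole, and for TEAD that of basement membrane regions did not. The letters searched on both strands were TGANTCA for AP-1 (FOS and JUN proteins), GAGGAAGT for PU.1 (a macrophage lineage factor), CAGGAAGT for ETS factors, GGAATG for TEAD (the DNA-binding partners of YAP and TAZ in the Hippo pathway), AGATAA for GATA factors, TTGCNNCAA for C/EBP, CACGTG for E-box proteins, and CAAAGTCCA for HNF4, together with longer consensus letters for CTCF, for the shared element of ROR and REV-ERB receptors, and for NF1. PU.1 and ETS letters share AGGAAGT. AP-1 letters were in 3 of 39 fibrillar (7.69%, 2.65% to 20.3%) and 3 of 27 basement membrane regions (11.1%, 3.85% to 28.1%), against 8.33% of all regions. PU.1 letters were in 1 and 2 regions of these classes, GATA letters in 1 and 3, and ETS letters in 1 and 1. C/EBP, E-box, CTCF, HNF4, ROR and REV-ERB, and NF1 letters were in none of these 66 regions, and in 0.0379% (NF1) to 6.07% (E-box) of all regions.

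TEAD letters were in 8 of 27 basement membrane regions (29.6%, 15.9% to 48.5%), 4 of 39 fibrillar regions (10.3%, 4.06% to 23.6%), 25 of the 191 collagen regions (13.1%, 9.03% to 18.6%), and 8.59% of all regions. Of the 8, 3 were at *Col4a1* and 5 at *Col4a2*, and 4 of them are printed above. Among those at *Col4a2* is the downstream region of 498 bp, which lies inside *Rab20*. The 4 fibrillar regions with the letters were at *Col1a1*, *Col5a2*, *Col5a3*, and *Col27a1*, 1 each. In windows of one length, 500 bp around each midpoint, the letters were in 14 of 27 basement membrane regions (51.9%), 10 of 39 fibrillar regions (25.6%), and 23.0% of all regions. TEAD stands out from 11 motifs after their shares had been seen, its letters are short, and its 8 regions come from 1 pair of genes, so the share is a description of these sequences and not of bound factors.

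**Figure D5:**
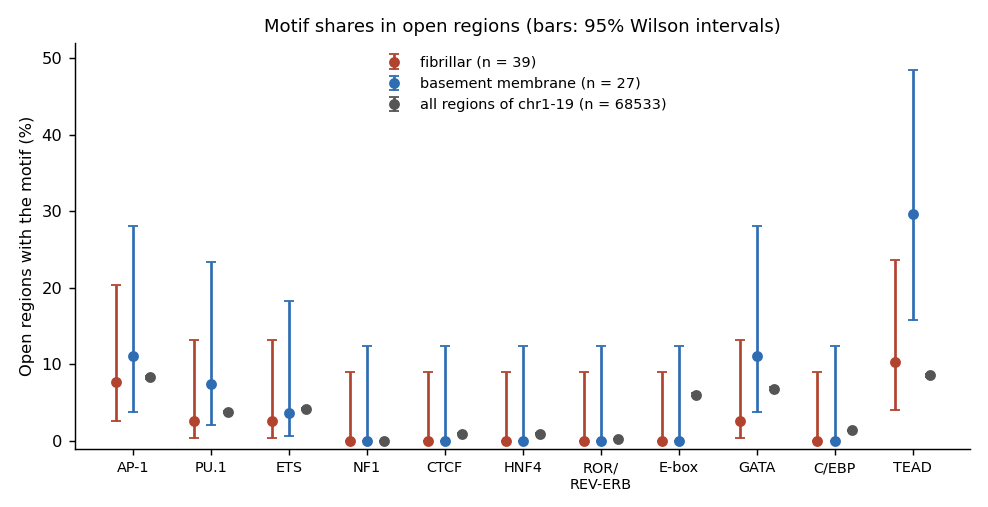
Share of open regions that hold the letters of each of 11 motifs (vertical axis, percent), for the 39 fibrillar regions, the 27 basement membrane regions, and all 68533 regions on chromosomes 1–19; bars are 95% Wilson intervals for counting error. TEAD letters are in 29.6% of basement membrane regions and 8.59% of all regions, and all other intervals of the 2 classes reach the value of all regions.

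Of the other collagens, the multiplexins had the highest density of any class. *Col15a1* and *Col18a1*, basement membrane zone proteoglycans whose C-terminal ends are released as restin and endostatin, had 18 regions each, or 14.4 and 13.4 per 100 kb. Their regions also began far from the first base, at 26952 bp in *Col15a1* and 7329 bp in *Col18a1*, and 11 and 14 of them were in later introns. AP-1 letters were in 5 of the 18 regions of *Col15a1* and in 0 of the 18 of *Col18a1*. They were in 20 of the 191 collagen regions and in 8.33% of all regions, and the difference between the 2 genes was not tested. If these 2 genes are counted with the collagen IV genes, as components of basement membrane zones, the density of the class rises to 7.67 per 100 kb.

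The FACITs, which attach to the surface of fibrils, had 45 regions (3.56 per 100 kb) and open starts in 5 of 9 genes. *Col16a1* led them with 10 regions (14.0 per 100 kb), 2 of which lay at the start of *Pef1*, and *Col9a1* had none. The beaded filament genes of type VI collagen had 8 regions in 6 genes (1.35 per 100 kb), 0 to 2 per gene, and an open start in 1 of 6, *Col6a2*. The short-chain genes had 5, all at *Col8a2*, and of these 2 lay at the start of *Adprhl2*, while *Col8a1* and *Col10a1* had none. The 4 transmembrane collagens had 29 (2.96 per 100 kb), 2 to 12 per gene, and 3 of 4 had an open start. *Col7a1*, the anchoring fibril collagen of skin, had 2 regions and *Col28a1* had 0. Over all classes, 14 of the 191 regions lay within 1000 bp of the start of another protein-coding gene, 4 of them at fibrillar and 2 at basement membrane genes. The same count was not made for all protein-coding genes, so it cannot be called high or low.

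Genes that make and handle collagen were described from lists that did not include the collagens. Of the genes for folding and modification of chains, 13 of 17 had an open start, among them *P4hb* and *P4ha1* (prolyl hydroxylase subunits) and *Plod1* to *Plod3* (lysyl hydroxylases), while *Serpinh1*, the collagen chaperone HSP47, had its nearest region 3451 bp from the first base. For processing and crosslinking it was 5 of 13 (*Bmp1*, *Lox*, *Loxl2*, *Loxl3*, and *Loxl4*). Among receptors and turnover genes it was 6 of 14, including the integrin genes *Itga1*, *Itga2*, and *Itgb1*, the receptor *Ddr1*, and the proteases *Mmp2* and *Mmp9*. Among the laminins and other partners of collagen IV in basement membranes it was 8 of 16, with 13 regions at *Hspg2* (perlecan) and none near the first base of *Nid1* (nidogen 1), where the nearest was 26589 bp away. In all, 32 of 60 of these genes had an open start (53.3%, 40.9% to 65.4%), against the 57.7% of all protein-coding genes.

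Cells other than macrophages could contribute regions to a list of this kind, so marker genes were read in the same way. Open starts were found at 6 of 9 macrophage markers, of which *Clec4f*, *Timd4*, *Emr1*, *Cd5l*, *Cd68*, and *Sfpi1* were open and *Csf1r*, *Marco*, and *Lyz2* were not. This share (66.7%, 35.4% to 87.9%) has an interval that includes the 57.7% of all protein-coding genes. They were also found at 9 of 10 markers of liver sinusoidal endothelial cells and 9 of 10 hepatocyte markers (90.0% each, 59.6% to 98.2%), with 2 to 14 and 1 to 12 regions per gene. Of the markers of stellate cells or fibroblasts, 2 of 10 had an open start (*Des* and *Pdgfrb*, with an interval of 5.67% to 51.0%). The same number was open among 10 genes of neurons and muscle. No region at all was found at *Lrat*, *Reln*, *Dcn*, *Lum*, and *Rgs5*, and 24.3% of all protein-coding genes had none. The remaining stellate or fibroblast markers had 4 regions each at *Acta2* and *Pdgfrb*, 2 each at *Des* and *Ngfr*, and 1 at *Hand2*. Regions per gene ranged from 0 to 4 for this list and from 0 to 14 for the neuron and muscle genes. For macrophage markers the range was 1 to 7. A region open in a few cells and one weakly open in many cells cannot be told apart here. The part of these cells in the regions of collagen genes was not tested.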

How the data were processed

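Fast-ATAC-Seq was done on LMs in 18 libraries. The authors ran the Kundaje laboratory pipeline, trimmed adapters, aligned reads to mm9 with Bowtie, merged replicates, and called peaks. The submitters' processing notes also name HOMER. The peak caller, its threshold, and how peaks were joined are not given in the sources used here. The deposited list, as made by the authors, holds only start and end positions (no count, signal, or score), pooled over all libraries, so depth and precision are unknown and samples could not be compared. Starts, counted from 0 in the list, are given from 1.

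Regions were assigned by midpoint to genes of the NCBIM37 assembly (mm9) and GENCODE vM1 annotation, with flanks of 10 kb, in Python 3.11.15 with NumPy 2.4.6, SciPy 1.17.1, and pysam 0.24.0, and plotted with matplotlib 3.10.9. On simulated data, the steps for assignment and motifs returned the planted answers. Introns were numbered on the longest coding transcript. Shares carry 95% Wilson intervals for counting error; genes and neighboring regions are not independent. No test was made, since there are no values per sample.

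The members, classes, and lists were chosen with earlier results of these data known. Every fibrillar and basement membrane gene is named; of the other members, the 3 densest genes and those with no region, which are also the least dense, are named, and further names were chosen after their values were seen. CpG classes, head-to-head pairs, gaps around starts, and long genes as background were also added then. Alternatives were other flanks, assignment by overlap, only regions of at least 200 bp, joined regions, other classes, each gene left out, and other definitions of an open start. Of the pathway genes, 60 of 61 listed symbols were found, and 49 of 50 marker symbols. Protein sequences were not used here.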

Additional observations from a re-analysis of the deposited data

How the results depend on the processing

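No paired analysis was possible because no library has values of its own here, and for the same reason no replicate could be left out. Of 91 recomputed values, 69 stayed within 1.5 times the reported value (motif shares within its 95% interval), 20 moved further, and 2 reversed. The ratio of basement membrane to fibrillar density (1.56) reversed to 0.991 without *Col4a2* (basement membrane density 3.05) and to 0.985 with means of the genes' densities (fibrillar 4.65). It moved to 2.46 without *Col27a1* (fibrillar 1.96), to 8.11 with medians (fibrillar 0.578), to 2.49 with *Col15a1* and *Col18a1* counted as basement membrane genes (7.67), and to 2.42 with *Col7a1* as well (7.45). Leaving out 1 gene at a time gave fibrillar densities of 1.96 to 3.85 and basement membrane densities of 3.05 to 6.34. With regions of at least 200 bp there were 49 regions at 17 genes, with densities of 0.948 (fibrillar) and 1.25 (basement membrane). Open starts of basement membrane genes (1 of 4) fell to 0 within 500 bp or at the first base only and rose to 2 within 2 kb or by overlap, those of all collagen genes (16) fell to 10 at the first base only, and those of fibrillar genes (4) stayed within 3 to 4. In 500 bp windows AP-1 letters were in 20.5% of fibrillar regions, 25.9% of basement membrane regions, and 16.9% of all regions. Flanks of 0 to 25 kb changed the number of regions (145 to 250) and of genes with one (27 to 38), and the ratio stayed between 1.56 and 1.78. Fewer regions or fewer genes follow from the construction of these settings, and no further cause was tested. The depth of the libraries limits every absence of a region, since a region below the threshold used by the authors is not listed.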

Other observations

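The last 2 collagen IV genes, *Col4a5* and *Col4a6*, form another head-to-head pair, on chromosome X. Their first bases are more than 1000 bp apart, which was the limit for the pairs counted above. These 2 genes were not among those described above. Neither had a region in its body or within 10 kb, and the nearest region to their first bases was 418567 bp from that of *Col4a5* and 417258 bp from that of *Col4a6*. Chromosome X as a whole had few regions, 825 in all or 0.495 per 100 kb, compared with 2.77 per 100 kb on chromosomes 1–19, so the absence of regions at this pair cannot be told apart from that of the chromosome.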
